A study of Mus musculus with 12 samples.

Results

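The comparison described here was between Gli1Null and Gli1Het neural stem cells (NSCs) after a cuprizone diet. Its members were the 3 libraries titled as Gli1Null on cuprizone and the 3 titled as Gli1Het on cuprizone, 6 of the 12 libraries of the series. The other 6 libraries, 3 Gli1Null and 3 Gli1Het on normal chow, served only as background and for the estimate of spread.

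The cells were GFP-positive, fate-mapped descendants of Gli1-expressing cells, sorted by FACS from the subventricular zone (SVZ) of adult C57BL/6 mice. They are called NSCs here after the study, and the name covers all sorted cells whatever their state. Gli1Null mice were Gli1CreERT2/CreERT2;RCE and had no working copy of Gli1, while Gli1Het mice were Gli1CreERT2/+;RCE and kept 1 copy. Both genotypes therefore carried the CreERT2 knock-in under the Gli1 promoter and the RCE reporter, and neither was wild type. Tamoxifen (5 mg) was given from an age of 10 weeks, and chow with 0.2% cuprizone was then fed over 3 weeks. Each library was a pool from 1 male and 1 female mouse, so a p-value below is set against the spread between pools of mice. In the reported edgeR fit that spread was estimated per gene over all 12 libraries together. It is therefore not the spread of the Gli1Het cuprizone group alone. In sorted bulk cells, fewer cells of a type and less RNA per cell cannot be told apart.

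Gli1 is a zinc finger transcription factor and a transcriptional target of Sonic hedgehog signalling, in which ligand binding to Patched releases Smoothened and turns on the GLI factors. In the adult ventral SVZ, Gli1 marks a subset of NSCs that mostly make neuroblasts for the olfactory bulb. Cuprizone is a copper chelator whose main victims in the brain are mature oligodendrocytes, and the SVZ lies beneath the corpus callosum in which it causes demyelination. The question put by the design was how NSCs without Gli1 differ from NSCs with Gli1 at an early stage of demyelination.

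The libraries held between 27703507 and 32468063 counts in genes in the Gli1Null cuprizone group and between 14059223 and 29879800 in the Gli1Het cuprizone group. The deepest Gli1Het library was replicate 2, and the other 2 were about as shallow as each other. Mitochondrial transcripts made up 0.715% to 1.08% of the counts in Gli1Null and 0.596% to 0.95% in Gli1Het, a difference of means within the spread (exact permutation test, two-sided, p = 0.4; the smallest p that 3 against 3 allows is 0.1). Levels are given as CPM, the usual unit of counts in a gene relative to all counts in genes of that library (scaled by TMM), in the order of replicates 1, 2 and 3.

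The targeted gene was examined first. Gli1 (chromosome 10, 127329882 to 127341974, mm10) had 0.65, 0.471 and 0.76 CPM in the Gli1Null cuprizone libraries, against 21.1, 0.819 and 3.8 CPM in the Gli1Het cuprizone libraries. Replicate 2 of the Gli1Het group, with 25 Gli1 counts and a 95% Poisson interval of 0.53 to 1.21 CPM, was as low as the Gli1Null libraries. It is called the library labelled Gli1Het replicate 2 below, and values without it are given beside some of the results. A result given without such a value may still have depended strongly on that library. On the control diet Gli1 averaged 0.349 ± 0.0492 CPM in Gli1Null and 14.7 ± 5.27 CPM in Gli1Het NSCs (SD, n = 3 each). The cuprizone groups did not overlap, but Gli1 did not pass at 0.05 in edgeR (log2 fold change, Gli1Null over Gli1Het, −3.74, SE 0.893, edgeR adjusted p = 0.0681; DESeq2 adjusted p = 0.000147). Without the library labelled Gli1Het replicate 2 it fell by 4.29 on the log2 scale (edgeR adjusted p = 0.0229).

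Sample numbers in the labels also split the Gli1Het group. Replicates 2 and 3 carried numbers under 10, as no Gli1Null library did, while Gli1Het replicate 1 and all Gli1Null libraries carried higher numbers. What the numbers stand for is not given in the sources used here, and their part in the results was not tested beyond the fits named in the closing section.

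Over 17623 genes with enough counts to be tested, edgeR called 7 genes at an adjusted p under 0.05. These made up 0.0397% of the genes tested. Of these, 4 rose in Gli1Null NSCs (0.0227% of all genes tested) and 3 fell (0.0170%). Many more genes lay just beyond that threshold: 486 were higher (2.76%) and 728 lower (4.13%) at an edgeR adjusted p under 0.1, together 6.89%. DESeq2 called 658 genes higher (3.73%) and 1043 lower (5.92%) at 0.05, together 9.65%, and 1195 genes met both of these wider criteria. The 3 Gli1Null libraries lay entirely above the 3 Gli1Het libraries for 15.0% of genes and entirely below them for 13.1%. In the control groups 7.80% of genes had no overlap, and edgeR called 0 genes at 0.05 (253 at an unadjusted p under 0.05). The median log2 fold change over all tested genes was −0.01. Below, "rose" and "fell" are kept for genes that passed edgeR at 0.05, and a call by DESeq2 is named as such.

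**Figure D1:**
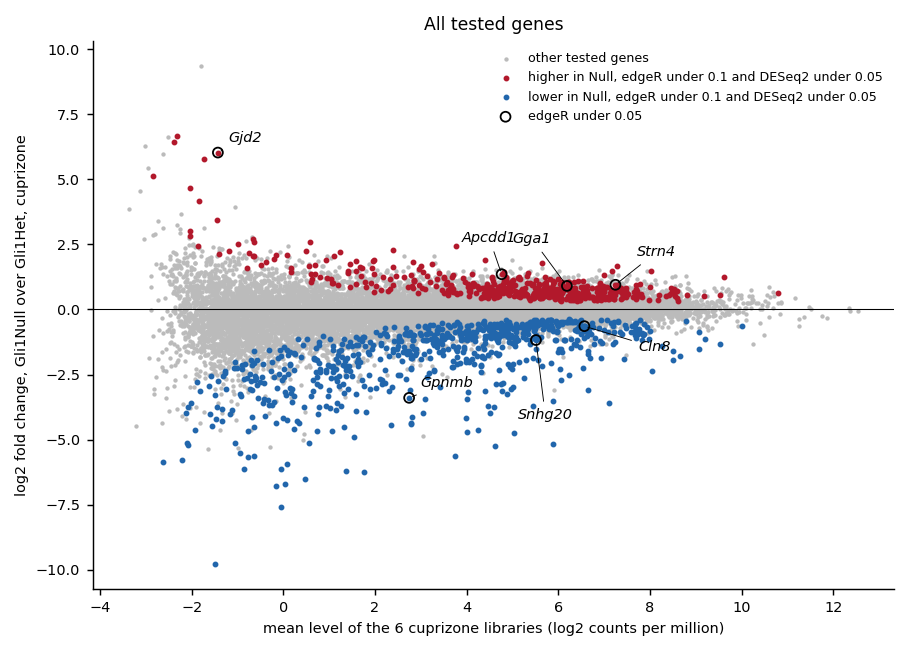
Log2 fold change (Gli1Null over Gli1Het on cuprizone) against the mean log2 CPM of the 6 cuprizone libraries for 17623 genes. Red points are genes higher and blue points genes lower in Gli1Null at an edgeR adjusted p under 0.1 and a DESeq2 adjusted p under 0.05, grey points are all other genes, and black rings mark the 7 genes edgeR called at 0.05. The lower genes reach larger fold changes than the higher genes except at the lowest levels.

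The 7 called genes had values that were alike within each genotype. Gpnmb, a transmembrane glycoprotein of lysosomes that is abundant in activated phagocytes (chromosome 6, 49036546 to 49070929), had 2.41, 1.56 and 2.15 CPM in Gli1Null NSCs, against 20.7, 24.9 and 18.9 CPM in Gli1Het NSCs. It fell by 3.40 on the log2 scale (SE 0.382, edgeR adjusted p = 0.0252), while both control groups stood near 1.5 CPM. It was thus high in all 3 Gli1Het cuprizone libraries and in no other group.

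Gjd2, which encodes the neuronal gap junction protein connexin 36 (chromosome 2, 114009601 to 114013619), had 2.15, 0.942 and 1.2 CPM in Gli1Null NSCs, against 0.0651, 0 and 0 CPM in Gli1Het NSCs. These were 130 counts in Gli1Null against 1 in Gli1Het, an 86.9-fold ratio with a 95% exact counting interval of 15.3 to 3460.2. The log2 fold change was 6.03 (SE 0.774, edgeR adjusted p = 0.0385). The control groups averaged 0.95 ± 0.0619 CPM in Gli1Null and 0.965 ± 0.271 CPM in Gli1Het (SD, n = 3 each), so Gjd2 was near 0 in the Gli1Het cuprizone libraries alone.

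Strn4, a scaffold of the STRIPAK phosphatase and kinase complex (chromosome 7, 16815889 to 16840931), had 212, 209 and 212 CPM in Gli1Null against 127, 94.4 and 107 CPM in Gli1Het NSCs and rose by 0.95 on the log2 scale (SE 0.124, edgeR adjusted p = 0.0385). Gga1, a clathrin adaptor that sorts cargo out of the trans-Golgi network (chromosome 15, 78877190 to 78894585), had 106, 92 and 102 CPM in Gli1Null against 57.6, 44.4 and 58.3 CPM in Gli1Het (log2 fold change 0.90, SE 0.127, edgeR adjusted p = 0.0457). Apcdd1, a membrane inhibitor of Wnt signalling, had 43, 41.7 and 46.2 CPM in Gli1Null against 18.9, 12.3 and 20.3 CPM in Gli1Het (log2 fold change 1.35, SE 0.194, edgeR adjusted p = 0.0457). In all 3 genes the Gli1Het cuprizone group stood below the control groups, and the Gli1Null cuprizone group near or above them.

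Cln8, a protein of the endoplasmic reticulum that carries lysosomal enzymes forward and is mutated in a neuronal ceroid lipofuscinosis (chromosome 8, 14881335 to 14901720), had 78.4, 72.8 and 76.5 CPM in Gli1Null against 108, 128 and 119 CPM in Gli1Het. It fell by 0.64 (SE 0.0926, edgeR adjusted p = 0.0457). Snhg20, a non-coding host transcript of small nucleolar RNAs (chromosome 11, 117076008 to 117078955), had 27.8, 35.3 and 28.3 CPM in Gli1Null against 57.1, 76.7 and 72.6 CPM in Gli1Het and fell by 1.18 (SE 0.17, edgeR adjusted p = 0.0457). Small RNA genes share 193 and 110 exonic bases with Snhg20, where reads cannot be assigned to either gene.

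**Figure D2:**
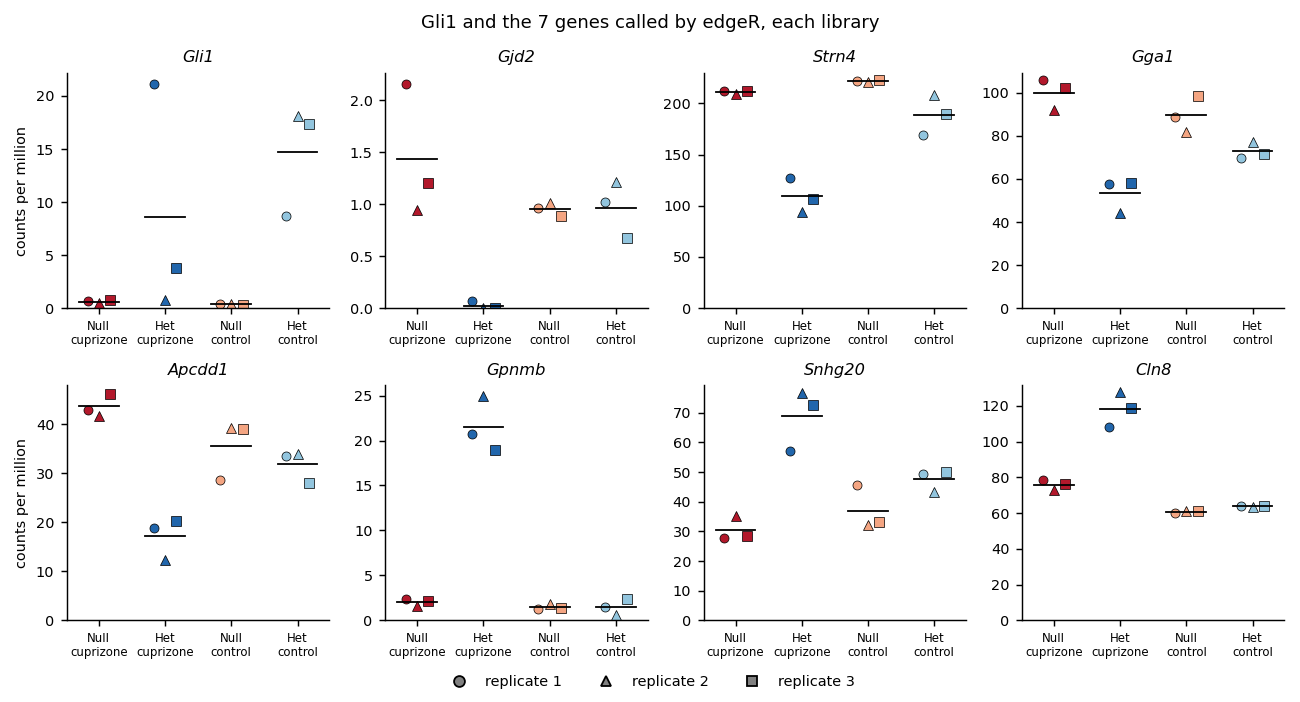
CPM of Gli1 and of the 7 genes edgeR called at 0.05 in every library, with Gli1Null cuprizone, Gli1Het cuprizone, Gli1Null control and Gli1Het control from left to right; symbols mark the replicates and bars the group means. Gpnmb stood between 18.9 and 24.9 CPM in the Gli1Het cuprizone libraries and no higher than 2.41 in the Gli1Null cuprizone libraries, while Gli1 differed widely among the Gli1Het cuprizone libraries.

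All 7 genes were still called without the library labelled Gli1Het replicate 2, when edgeR called 20 genes higher (0.113%) and 17 lower (0.0965%), and without Gli1Het replicate 1, when it called 5015. Without Gli1Het replicate 3, 3 genes were called and Gpnmb was the only one of the 7 among them. Leaving out any 1 Gli1Null cuprizone library left 0 genes called (2782 to 3096 at an unadjusted p under 0.05). Leaving out any 1 control library, which enters only through the estimate of spread, left 0 genes called or 1, Gpnmb. None of the 7 passed in the control groups, and the difference between the diets did not pass either (lowest adjusted p = 0.323 for Gpnmb and Gjd2 in edgeR's interaction test).

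RefSeq promoter windows of 300 bases (GRCm38.p6) were found for 5 of the 7, namely Gpnmb, Strn4, Gga1, Gjd2 and Snhg20. The GLI consensus GACCACCCA, searched on both strands, was in 0 of these 5 windows and in 0.253% of all 32851 windows. Its inner letters CCACCCA were in 0 of the 5 and in 9.3% of all windows. The absence of these letters from the windows says nothing about binding of GLI factors elsewhere.

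Beyond the called genes, the Gli1Het libraries differed more among themselves than the Gli1Null libraries did. The median over genes of the SD of log2 CPM was 0.13 in the Gli1Null and 0.378 in the Gli1Het cuprizone group. In the control groups it was 0.178 in Gli1Null and 0.221 in Gli1Het. Against the mean of the Gli1Null cuprizone libraries, 760 genes were over 2-fold higher and 642 over 2-fold lower in Gli1Het replicate 1, 2457 and 2559 in the library labelled Gli1Het replicate 2, and 1111 and 1260 in Gli1Het replicate 3. A Gli1Null library set against the mean of the other 2 had between 262 and 377 in either direction. Replicate 1 of the Gli1Het group was thus the nearest to the Gli1Null group and replicate 2 the farthest. The same order held for most single genes. Among the 715 genes lower in Gli1Null by both wider criteria, the library labelled Gli1Het replicate 2 had the highest of the 3 Gli1Het values for 629 and replicate 1 the lowest for 598. Gli1 itself, among these 715, ran the other way. It was highest in Gli1Het replicate 1 (21.1 CPM) and lowest in replicate 2 (0.819 CPM). Among the 480 genes higher in Gli1Null, replicate 2 had the lowest Gli1Het value for 382 and replicate 1 the highest for 376. In the paper, the RNA integrity number of every Gli1Het cuprizone library was below that of every Gli1Null cuprizone library. RNA concentrations overlapped, and fewer cells on average were sorted from the Gli1Het cuprizone mice. The part that these libraries, their label numbers, depth, RNA integrity and cell yield had in the differences below was not tested.

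**Figure D3:**
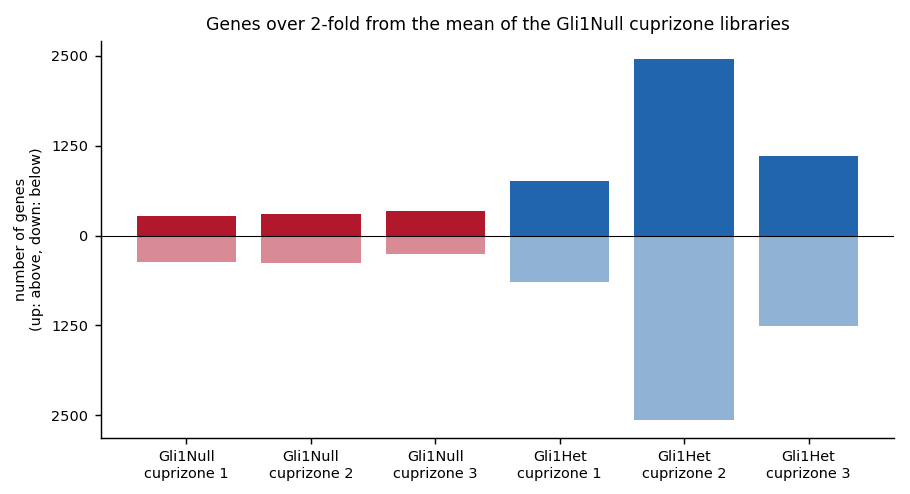
Number of genes over 2-fold above (upward bars) or below (downward, paler bars) the mean of the Gli1Null cuprizone libraries in each cuprizone library; a Gli1Null library is set against the other 2. The library labelled Gli1Het replicate 2 had 2457 and 2559 such genes, Gli1Het replicate 3 had 1111 and 1260, and Gli1Het replicate 1 had 760 and 642.

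The 12 lower genes with the largest fold by the naming rule were Runx1, Adamts14, Nov, 9530053A07Rik, Ccl2, Ahnak2, Anxa3, Dhh, Igfbp3, Scd1, Spp1 and Tgm1, with log2 fold changes between −7.58 and −4.88. All 12 had edgeR adjusted p between 0.0559 and 0.0681. The naming rule itself asked for a call by DESeq2 and no overlap, so these are no further evidence. Runx1, a transcription factor of blood cells and of injured tissue, had 0, 0.0362 and 0.19 CPM in Gli1Null against 0.911, 37 and 8.79 CPM in Gli1Het. Scd1, a desaturase that makes monounsaturated fatty acids, had 17.8, 21.9 and 16.8 CPM in Gli1Null against 37.9, 1925 and 83.8 CPM in Gli1Het. The library labelled Gli1Het replicate 2 stood far above the others in both genes. Without it Scd1 fell by 1.68 on the log2 scale (edgeR adjusted p = 0.0368, against −5.18 with it), while Runx1 came to −5.87 (edgeR adjusted p = 0.0666). Spp1, which encodes osteopontin, was an exception among the 12, with 0.228, 0.145 and 0.76 CPM in Gli1Null against 34.1, 5.63 and 0.844 CPM in Gli1Het, the highest value being in Gli1Het replicate 1.

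Targets of the tumour suppressor p53, which halts the cell cycle or kills cells with damaged DNA, were examined next. Of 26 measured targets, 16 were called lower and 0 higher by DESeq2, and 14 were lower and 0 higher in edgeR at 0.1. Over all tested genes DESeq2 called 5.92% lower and 3.73% higher, and edgeR at 0.1 had 4.13% lower and 2.76% higher. The calls in this and each later list are to be read beside these shares. The median log2 fold change was −1.58, and −0.54 without the library labelled Gli1Het replicate 2. Without Gli1Het replicate 1 it was −1.98, and edgeR at 0.05 called 22 lower, beside 2268 of all 17623 tested genes. Cdkn1a, the cyclin-dependent kinase inhibitor p21, had 151, 131 and 140.1 CPM in Gli1Null against 181, 1612 and 407 CPM in Gli1Het (log2 fold change −2.38, SE 0.58, edgeR adjusted p = 0.0702, DESeq2 adjusted p = 0.00634), and without the library labelled Gli1Het replicate 2 the log2 fold change was −1.05 (edgeR adjusted p = 0.0942). Phlda3, an inhibitor of Akt, had 42.1, 44.3 and 40.2 CPM in Gli1Null against 67.1, 781 and 243 CPM in Gli1Het, with log2 fold changes of −3.11, and −1.87 without the library labelled Gli1Het replicate 2. The groups did not overlap in either gene, although Gli1Het replicate 1 exceeded the Gli1Null libraries only narrowly for Cdkn1a. Mdm2, the ligase that degrades p53, had 119.8, 123 and 113 CPM in Gli1Null against 123, 916 and 166 CPM in Gli1Het and was called by neither tool (DESeq2 adjusted p = 0.0621). The death receptors Fas and Tnfrsf10b were both called lower by DESeq2. Fas had 5.46, 5.47 and 7.19 CPM in Gli1Null against 12.9, 143 and 41.6 CPM in Gli1Het. Among 24 cell death genes, 6 were called lower and 1 higher by DESeq2. Bax, a pore-forming executor of mitochondrial apoptosis, had 67.3, 71.4 and 71.5 CPM in Gli1Null against 81.6, 155 and 105 CPM in Gli1Het, and Bcl2l2, a survival factor of the same family, was also called lower by DESeq2.

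**Figure D4:**
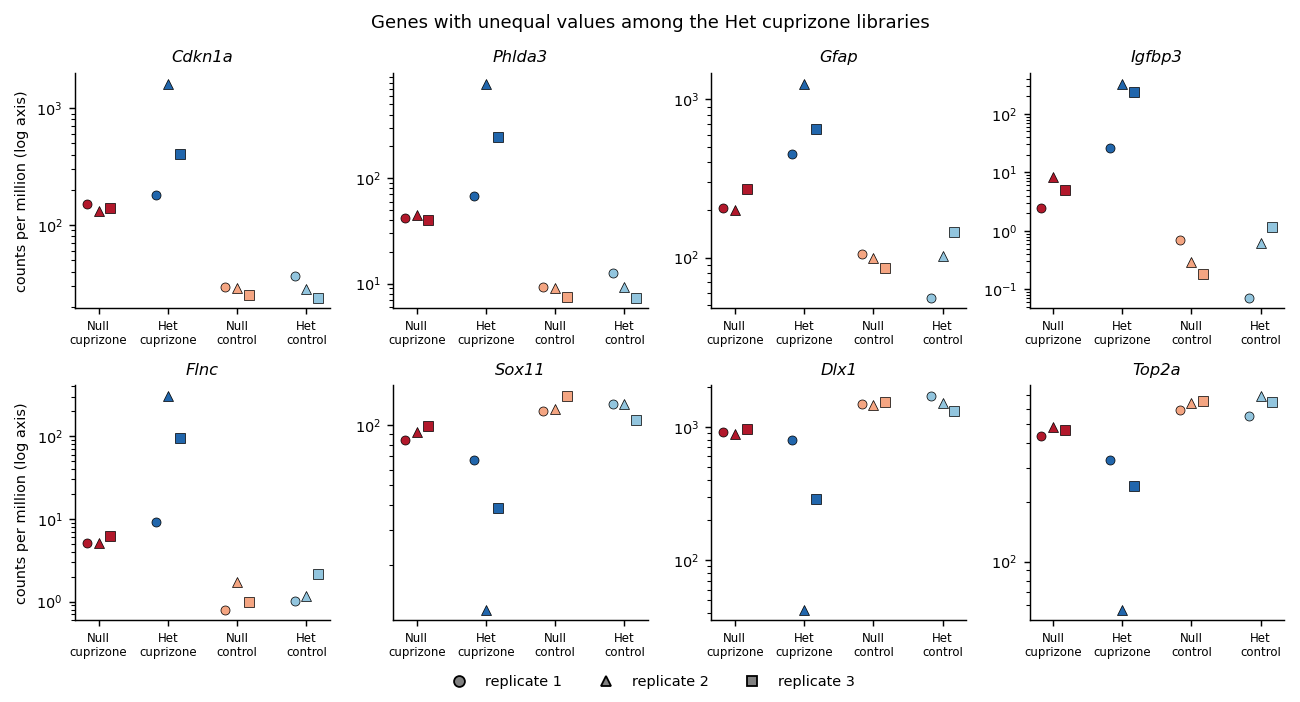
CPM on a log axis of 8 genes in every library, with Gli1Null cuprizone, Gli1Het cuprizone, Gli1Null control and Gli1Het control from left to right and symbols for the replicates; the genes were picked for display after their values were seen. In each panel the library labelled Gli1Het replicate 2 is farthest from the Gli1Null cuprizone libraries and Gli1Het replicate 1 nearest, as for Cdkn1a with 1612 and 181 CPM against 131 to 151 CPM.

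All 13 measured genes that mark reactive astrocytes had a negative log2 fold change. Of these, 10 were called lower and 0 higher by DESeq2, and all 3 Gli1Null libraries lay below all 3 Gli1Het libraries for 11. The latter held for 13.1% of all tested genes. The median log2 fold change was −2.28, and −1.65 without the library labelled Gli1Het replicate 2. Gfap, the intermediate filament of astrocytes and of adult NSCs, had 207, 201 and 273 CPM in Gli1Null against 452, 1254 and 651 CPM in Gli1Het (log2 fold change −1.79, SE 0.377, edgeR adjusted p = 0.0603, DESeq2 adjusted p = 0.000208). Vim had 203, 212 and 199 CPM in Gli1Null against 286, 1392 and 664 CPM in Gli1Het. Cd44, a hyaluronan receptor, had 7.48, 10.2 and 8.9 CPM in Gli1Null against 11.1, 249.9 and 100.2 CPM in Gli1Het, with log2 fold changes of −3.77, and −2.64 without the library labelled Gli1Het replicate 2. Each of these was higher in every Gli1Het library than in any Gli1Null library.

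Annexins and S100 proteins, which bind membranes in the presence of calcium, and their partners Ahnak and Ahnak2 had negative log2 fold changes in all 17 measured genes. Of these, 10 were called lower and 0 higher by DESeq2, with a median log2 fold change of −1.25, and −0.75 without the library labelled Gli1Het replicate 2. Anxa3 had 1.76, 2.86 and 3.17 CPM in Gli1Null against 11.1, 269 and 107 CPM in Gli1Het (log2 fold change −5.64, SE 0.907, edgeR adjusted p = 0.0559). It fell by 4.50 without the library labelled Gli1Het replicate 2 (edgeR adjusted p = 0.0368). Flnc, a muscle-type filamin that crosslinks actin, had 5.17, 5.15 and 6.18 CPM in Gli1Null against 9.17, 305 and 94.5 CPM in Gli1Het. Of 20 genes of actin crosslinking and focal adhesion, 6 were called lower by DESeq2, with a median of −0.38, and −0.22 without the library labelled Gli1Het replicate 2. Flna, the widely expressed filamin, was not among them, with 382, 492 and 447 CPM in Gli1Null against 439, 372 and 386 CPM in Gli1Het.

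Insulin-like growth factor binding proteins did not move as 1 family. Igfbp3 had 2.5, 8.23 and 5.01 CPM in Gli1Null against 26.2, 325 and 237 CPM in Gli1Het (log2 fold change −5.23, SE 0.839, edgeR adjusted p = 0.0559). It fell by 4.64 without the library labelled Gli1Het replicate 2 (edgeR adjusted p = 0.0368). Igfbp2 was also called lower by DESeq2, with 14.8, 9.35 and 12.6 CPM in Gli1Null against 27.7, 162 and 117 CPM in Gli1Het. The receptor Igf1r was called higher by DESeq2, with 62.5, 69.7 and 65.1 CPM in Gli1Null against 40.7, 34.7 and 41.2 CPM in Gli1Het (log2 fold change 0.76, SE 0.142, edgeR adjusted p = 0.0561). Unlike the binding proteins, Igf1r had like values in the 3 Gli1Het libraries. Igfbp5 was called higher by DESeq2 as well, with 541, 669 and 679 CPM in Gli1Null against 533, 250.0 and 306 CPM in Gli1Het. Among 11 genes of this system, 3 were called lower and 2 higher by DESeq2.

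Of 17 NF-kB and TNF response genes, 7 were called lower and 0 higher by DESeq2, and edgeR called 0 at 0.05. Their median was −1.14, and −0.77 without the library labelled Gli1Het replicate 2. Tnfrsf12a, the receptor of the cytokine TWEAK, had 4.94, 6.09 and 3.36 CPM in Gli1Null against 6.7, 286 and 84.6 CPM in Gli1Het. Ccl2, a chemokine that draws monocytes, had 0.845, 0.58 and 0.0634 CPM in Gli1Null against 1.95, 90.1 and 18.1 CPM in Gli1Het. In the interleukin 6 family 5 of 12 were called lower and 1 higher by DESeq2, with a median of −0.94, and −0.47 without the library labelled Gli1Het replicate 2. Clcf1, a ligand of the ciliary neurotrophic factor receptor, fell by 3.37 without the library labelled Gli1Het replicate 2 (edgeR adjusted p = 0.0368, against −4.36 and 0.0559 with it). Its receptor chain Cntfr was the 1 called higher, with 280.4, 194 and 284 CPM in Gli1Null against 68.4, 57.2 and 149 CPM in Gli1Het. Ligand and receptor thus stood on opposite sides.

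Growth factor and immediate early genes were split. Of 21 AP-1 and immediate early factors, 7 were called lower by DESeq2, and the median of −0.52 turned to 0.27 without the library labelled Gli1Het replicate 2. Fosl1, an AP-1 subunit, had 1.43, 1.85 and 1.96 CPM in Gli1Null against 1.56, 91.6 and 19.4 CPM in Gli1Het, so that Gli1Het replicate 1 lay within the Gli1Null range. Myc showed the same overlap, with 16.5, 17.3 and 17.3 CPM in Gli1Null against 16.5, 144 and 57.1 CPM in Gli1Het. Hbegf and Nrg1, ligands of the EGF receptor family, were called lower by DESeq2, and Etv1 and Dusp4, transcripts switched on by ERK, were called higher. Etv1 had 121, 99.4 and 117 CPM in Gli1Null against 78.1, 33.2 and 49.8 CPM in Gli1Het. Of 18 TGF-beta pathway genes and targets, 4 were called lower and 1 higher by DESeq2. The median was −0.55, and −0.24 without the library labelled Gli1Het replicate 2. Ctgf and Thbs1, targets of this pathway, were among the lower ones, and the receptor Tgfbr1 was the higher one. Of 14 YAP and TEAD targets and partners, 6 were called lower, among them the coactivator Wwtr1.

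Microglia markers followed another pattern over the libraries. Of 14 measured, 7 were called lower and 0 higher by DESeq2, and the median was −2.01, or −1.90 without the library labelled Gli1Het replicate 2. C1qa, a complement subunit made by microglia, had 0.91, 0.761 and 1.81 CPM in Gli1Null against 9.17, 9.1 and 2.18 CPM in Gli1Het. Fcer1g, an adaptor of immune receptors, had 0.195, 0.217 and 0.158 CPM in Gli1Null against 3.45, 2.13 and 0.563 CPM in Gli1Het. Replicates 1 and 2 of the Gli1Het group were high and replicate 3 came near the Gli1Null values. The summed level of the 14 markers was 124, 101 and 121 CPM in Gli1Null against 178, 222 and 161 CPM in Gli1Het. The control libraries ranged between 69.5 and 97.4 CPM. In the Gli1Null libraries up to 1 marker was at 0 counts, and in Gli1Het replicate 3 there were 2, Aif1 and Trem2, picked out here because of those 0 counts. Gpnmb, at 18.9 CPM in Gli1Het replicate 3, did not share the low values of that library, and the part of microglia in the other results was not tested.

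Among 24 lysosome genes, Gpnmb fell and 6 in all were called lower by DESeq2, with a median of −0.24, and −0.15 without the library labelled Gli1Het replicate 2. Ctsd, a lysosomal aspartyl protease, had 498, 442 and 514 CPM in Gli1Null against 724, 1879 and 1052 CPM in Gli1Het (log2 fold change −1.33, SE 0.265, edgeR adjusted p = 0.0562). It fell by 0.87 without the library labelled Gli1Het replicate 2 (edgeR adjusted p = 0.044). Cd68, a lysosomal protein of macrophages, had 1.46, 2.54 and 2 CPM in Gli1Null against 9.3, 28.9 and 8.51 CPM in Gli1Het. Among 13 neuronal ceroid lipofuscinosis genes, only Cln8 and Ctsd were called by DESeq2.

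Stress pathways differed in part. The integrated stress response, in which ATF4 raises amino acid supply, had 5 of 27 genes called lower by DESeq2 and a median of −0.10. Ddit3, the factor CHOP, had 60.4, 48.9 and 54.8 CPM in Gli1Null against 67.3, 239 and 108 CPM in Gli1Het. Slc7a5, the transporter of large neutral amino acids, had 1315, 948 and 1091 CPM in Gli1Null against 1068, 902 and 1277 CPM in Gli1Het, while each control group averaged 149 CPM. The cuprizone values of Slc7a5 overlapped between the genotypes and both stood well above the control diet. Of 20 cytosolic tRNA synthetase genes 1, Wars, was called lower by DESeq2, with 150.5, 159 and 156 CPM in Gli1Null against 202, 340.3 and 279 CPM in Gli1Het. DESeq2 called 5.92% of all tested genes lower, so 1 of 20 does not set this list apart.

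In the unfolded protein response of the endoplasmic reticulum 7 of 17 genes were called lower by DESeq2, with a median of −0.71 that shrank to −0.28 without the library labelled Gli1Het replicate 2. The chaperone gene Hspa5 had 731, 983 and 873 CPM in Gli1Null against 943, 4372 and 1236 CPM in Gli1Het. Of 16 Nrf2 targets 5 were called lower, and of 17 genes of copper handling and metallothioneins 5. Their medians of −0.39 and −0.38 shrank to −0.18 and −0.09 without the library labelled Gli1Het replicate 2. Cp, the copper-carrying ferroxidase ceruloplasmin, had 4.26, 4.82 and 4.82 CPM in Gli1Null against 7.68, 76.3 and 24.6 CPM in Gli1Het. Ccs, the copper chaperone of superoxide dismutase, had 34.8, 36.1 and 32.5 CPM in Gli1Null against 43.7, 66.1 and 55.7 CPM in Gli1Het. Among 15 heat shock genes, the small proteins Cryab, Hspb1 and Hspb8 were called lower and Dnaja1 higher.

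**Figure D5:**
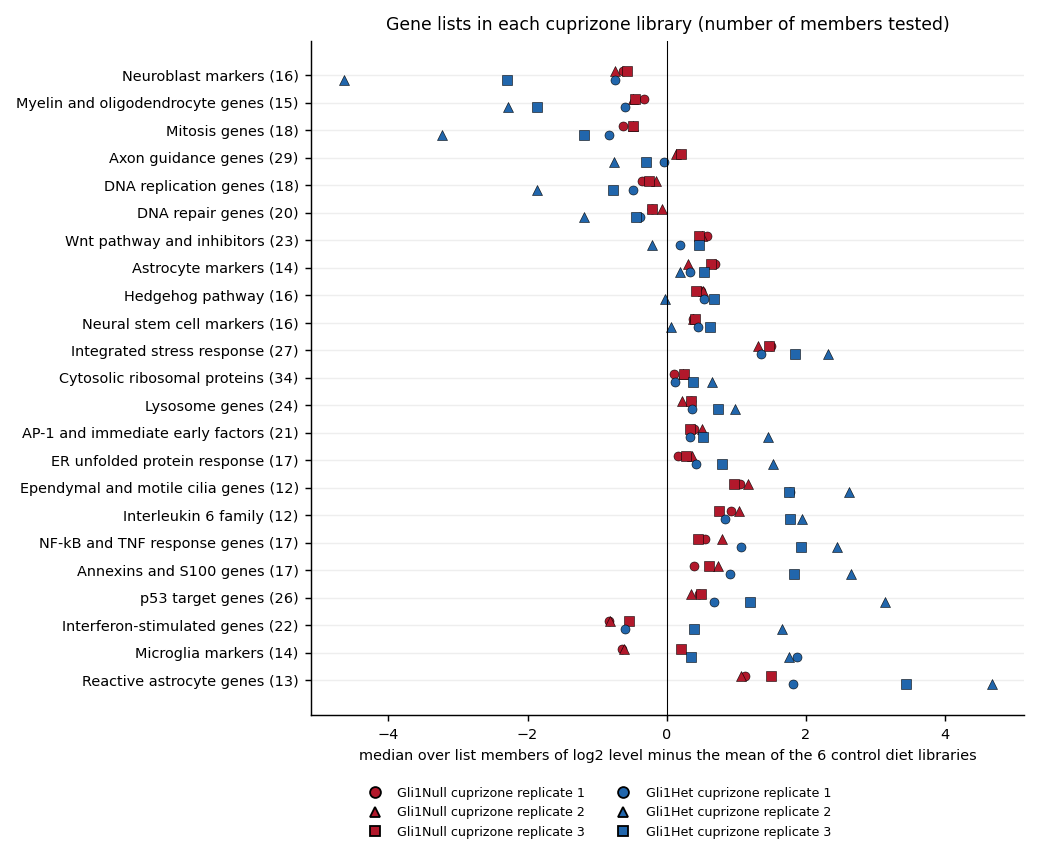
Median over the members of 23 gene lists of the log2 level in each cuprizone library minus the mean of the 6 control diet libraries; red symbols are Gli1Null and blue symbols Gli1Het libraries, and the number of members tested stands after each name. The library labelled Gli1Het replicate 2 lies farthest out in most lists, at 4.67 for reactive astrocyte genes and −4.64 for neuroblast markers.

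Among genes that averaged 5 CPM or more in the higher group, as the naming rule asked, the 12 with the largest higher fold in Gli1Null NSCs included Ecel1, Pcsk1, Lrrtm3, Kif26a, Cntnap4, Rapgef5, Syngr3, Shisa2, Bard1, Pgbd5 and Fscn1, with log2 fold changes between 1.67 and 2.43 and edgeR adjusted p between 0.0559 and 0.0976. A call by DESeq2 and no overlap were again conditions of the rule. Bard1, the partner of BRCA1 in DNA repair, had 20.9, 19.8 and 11.2 CPM in Gli1Null against 5.14, 4.71 and 5.77 CPM in Gli1Het (log2 fold change 1.73, SE 0.28, DESeq2 adjusted p = 3.76e-06). The Gli1Het values of Bard1 were alike, and its control groups averaged 6.99 CPM in Gli1Null and 9.5 CPM in Gli1Het. Fscn1, which bundles actin in the processes of migrating cells, had 333, 286 and 339.9 CPM in Gli1Null against 196, 27.8 and 77.8 CPM in Gli1Het. Ecel1, a membrane peptidase of neurons, had 30.2, 46.7 and 32.3 CPM in Gli1Null against 3.64, 2.55 and 14.5 CPM in Gli1Het.

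Neuroblast genes were on the higher side. All 16 measured markers had a positive log2 fold change, with a median of 1.24 (0.74 without the library labelled Gli1Het replicate 2), and the libraries did not overlap for 8. For these 8 all Gli1Null libraries lay above all Gli1Het libraries, as for 15.0% of all tested genes. DESeq2 called 2 of them higher, including Sox11, and edgeR called 0 at 0.05. Without Gli1Het replicate 1 the median was 2.44, and edgeR called all 16 higher, beside 2747 of all 17623 tested genes. Sox11, a transcription factor of newborn neurons, had 84.9, 92.2 and 99.4 CPM in Gli1Null against 67.1, 11.9 and 38.5 CPM in Gli1Het (log2 fold change 1.24, SE 0.418, edgeR adjusted p = 0.117, DESeq2 adjusted p = 0.0373). Dlx1, a homeobox factor of GABAergic precursors, had 907, 882 and 954 CPM in Gli1Null against 799, 42.6 and 287 CPM in Gli1Het and was not called (edgeR adjusted p = 0.238). The summed level of the 16 markers was 4380.3, 4096 and 4567 CPM in Gli1Null against 3851, 446 and 1444 CPM in Gli1Het. Gli1Het replicate 1 was close to the Gli1Null libraries, and the control libraries lay between 5939.9 and 7908 CPM.

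Proliferation genes lay on the same side, without a call when all libraries were used. For 16 of 18 mitosis genes and 14 of 18 DNA replication genes all Gli1Null libraries lay above all Gli1Het libraries, where 15.0% of all genes did. With all libraries neither tool called any gene of either list. The medians were 0.84 and 0.62, and 0.41 and 0.33 without the library labelled Gli1Het replicate 2. Without Gli1Het replicate 1 they were 1.31 and 0.90. In that fit edgeR at 0.05 called 12 mitosis and 15 replication genes higher, beside 2747 of all 17623 tested genes. Top2a, the topoisomerase of dividing cells, had 434, 486 and 467 CPM in Gli1Null against 329.6, 56.8 and 241 CPM in Gli1Het (edgeR adjusted p = 0.141, DESeq2 adjusted p = 0.0602). Mcm6, a subunit of the replicative helicase, had 339.8, 391 and 382 CPM in Gli1Null against 292, 79.4 and 231 CPM in Gli1Het. The G1 cyclin Ccnd2 had 2192, 2265 and 2382 CPM in Gli1Null against 1864, 450.1 and 1425 CPM in Gli1Het and was not called, while Ccnd1 was called lower by DESeq2, with 35.8, 41.7 and 41.6 CPM in Gli1Null against 44.3, 65.9 and 90.8 CPM in Gli1Het. Of 20 DNA repair genes, Bard1 and Chek1 were called higher by DESeq2.

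Of 29 axon guidance genes, 6 were called higher and 1 lower by DESeq2, with a median of 0.68, and 0.43 without the library labelled Gli1Het replicate 2. Unc5d, a netrin receptor, had 5.92, 4.93 and 6.05 CPM in Gli1Null against 2.21, 1.38 and 2.04 CPM in Gli1Het. Robo1, a Slit receptor that guides migrating neuroblasts, had 32.4, 28.1 and 29.5 CPM in Gli1Null against 19.9, 15.2 and 19 CPM in Gli1Het, and Epha4 and Sema5a were also called higher. Of 23 Wnt pathway genes, Apcdd1 rose, and Notum, a secreted Wnt inhibitor, was called higher by DESeq2 with 160.1, 213 and 189 CPM in Gli1Null against 111, 27.3 and 101 CPM in Gli1Het. Other transcripts cover part of the exons of Notum, Fosl1, Ctsd, Ccnd1, Ctgf, Tagln and Arhgap22. Since no source used here states how strand was treated in counting, the counts of these genes are uncertain. Of 19 metabotropic glutamate and synaptic adhesion genes, 4 were called higher and 0 lower by DESeq2, among them Grm3 and Lrrtm3. Ppp1r1b, known from striatal neurons, had 52, 52.4 and 57.7 CPM in Gli1Null against 26.2, 20.8 and 24.7 CPM in Gli1Het. Hk1, the hexokinase that begins glycolysis, had 157, 139 and 166 CPM in Gli1Null against 112, 111 and 110.0 CPM in Gli1Het. It had the highest log2 fold change of 22 glycolysis and hypoxia genes, whose median was −0.15. DESeq2 called 2 of these 22 higher and 3 lower. In Ppp1r1b and Hk1 the Gli1Het libraries differed less from each other than from the Gli1Null libraries.

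Of 16 hedgehog pathway genes measured, DESeq2 called 2, Gli1 and the ligand gene Dhh, both lower. Smo, which carries the signal across the membrane, had 163, 147 and 155 CPM in Gli1Null against 118, 101 and 150.0 CPM in Gli1Het, with overlap. Gas1, a co-receptor, had 239, 181 and 215 CPM in Gli1Null against 192, 234 and 312 CPM in Gli1Het. Dhh had 0.0325, 0.0725 and 0.19 CPM in Gli1Null against 0.39, 12 and 2.6 CPM in Gli1Het. Overlapping transcripts cover part of the Dhh exons, so these counts are uncertain.

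Markers of the labelled cell type were described, but they do not show what share of the sorted cells were NSCs. All 16 NSC markers and all 14 astrocyte markers had enough counts to be tested. Neuroblast markers summed to 4096 to 4567 CPM in Gli1Null and 446 to 3851 CPM in Gli1Het. Mitosis genes summed to 2411 to 2686 CPM in Gli1Null and 406 to 2118 CPM in Gli1Het. Slc1a3, the glutamate transporter of radial glia and astrocytes, had 6005, 4609 and 5028 CPM in Gli1Null against 4679, 5060.3 and 6612 CPM in Gli1Het. Sox9 had 909, 708 and 802 CPM in Gli1Null against 724, 852 and 815 CPM in Gli1Het. Both overlapped between the genotypes and were called by neither tool. Of the 16 NSC markers DESeq2 called 3, all lower, namely Gfap, Vim and Nes, which encode intermediate filaments. Of the astrocyte markers it called only Agt, which encodes angiotensinogen, with 126, 258 and 142 CPM in Gli1Null against 84.9, 70.7 and 105 CPM in Gli1Het.

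Of 12 ependymal and motile cilia genes, 5 were called lower and 0 higher by DESeq2 (median −0.92, and −0.62 without the library labelled Gli1Het replicate 2). Foxj1, the master factor of motile cilia, had 64.3, 62 and 55.8 CPM in Gli1Null against 96.3, 363 and 133 CPM in Gli1Het, with control groups near 17 CPM. Oligodendrocyte lineage genes went in both directions. Olig1 was called lower by DESeq2, with 118, 97 and 103 CPM in Gli1Null against 113, 239.8 and 283 CPM in Gli1Het. Of 15 myelin genes, Mag and Ugt8a were called higher and 0 lower. Mag, an adhesion protein of myelin, had 5.33, 2.03 and 5.32 CPM in Gli1Null against 0.26, 1.38 and 0.281 CPM in Gli1Het, while Mbp overlapped, with 60.7, 31 and 119 CPM in Gli1Null against 68.8, 4.22 and 18.6 CPM in Gli1Het.

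Markers of vessels were low but unequal. The summed level of 10 endothelial markers was 5.01, 17.9 and 17.8 CPM in Gli1Null against 1.63, 11.5 and 6.68 CPM in Gli1Het, with 3.08 to 9.57 CPM in the Gli1Null and 16 to 17.4 CPM in the Gli1Het control libraries. Adgrl4, an endothelial adhesion receptor, had 104 counts in Gli1Null against 1 in Gli1Het, a 69.6-fold ratio with a 95% exact counting interval of 12.2 to 2773. DESeq2 called Adgrl4 and Cldn5 higher. Ly6a, a surface antigen of endothelial and interferon-treated cells, moved with these markers, at 0.163, 1.59 and 1.52 CPM in Gli1Null against 0, 0.131 and 0.141 CPM in Gli1Het. Whether vessel cells among the sorted cells account for such genes was not tested. Of 6 choroid plexus markers DESeq2 called 0, and Ttr was at 24.9 CPM in Gli1Null replicate 3 and at no more than 1.69 CPM in the other 5 cuprizone libraries. Of 12 mural and fibroblast markers, only Tagln was called, lower in Gli1Null.

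Interferon-stimulated genes had a large median with no call. The median log2 fold change of 22 genes was −1.71, and −0.71 without the library labelled Gli1Het replicate 2, but neither tool called any of them. Isg15 had 0.91, 0.725 and 1.33 CPM in Gli1Null against 1.56, 18.3 and 4.71 CPM in Gli1Het, with 32.8, 0.519 and 0.589 CPM in the Gli1Null and 2.11, 1.37 and 32.1 CPM in the Gli1Het control libraries. The high libraries of each control group also stood apart in the summed level of the 22 genes, at 1492 CPM for Gli1Null control replicate 1 and 1795 CPM for Gli1Het control replicate 3, against 246 to 310.1 CPM in the other 4 control libraries. Of 11 genes of MHC class I presentation, DESeq2 called only H2-D1, with 80.4, 66.8 and 85.7 CPM in Gli1Null against 129, 284 and 173 CPM in Gli1Het.

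Several housekeeping groups had small medians and few calls. Of 34 cytosolic ribosomal protein genes and 25 nuclear genes of the respiratory chain, 0 were called by either tool, with medians of −0.20 and −0.16, and −0.04 and −0.01 without the library labelled Gli1Het replicate 2. Of 21 proteasome subunits DESeq2 called 1, Psmb3, lower, where it called 5.92% of all tested genes lower. Among 23 genes of cholesterol and fatty acid synthesis Scd1 was the only call. The median of −0.21 turned to 0.07 without the library labelled Gli1Het replicate 2. Of 9 small nucleolar RNA host genes, Snhg20 fell and 4 in all were called lower by DESeq2 (median −0.59, and −0.32 without the library labelled Gli1Het replicate 2). Gas5, among the 4, had 146, 148 and 141 CPM in Gli1Null against 170.0, 291 and 194 CPM in Gli1Het.

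Of the genes that the study itself listed for the cuprizone groups, 19 were matched by symbol. The study chose them on these libraries, so their directions are not independent evidence. DESeq2 called all 19, 9 higher and 10 lower, and edgeR at 0.05 called Gjd2 and Gpnmb among them. Besides those above, Clcf1 had 1.37, 2.43 and 1.77 CPM in Gli1Null against 6.7, 75 and 31.9 CPM in Gli1Het, and Adm, a vasodilator peptide, had 0.293, 0.399 and 0.824 CPM in Gli1Null against 2.02, 28.3 and 8.23 CPM in Gli1Het. Plaur, the urokinase receptor, had 0.0325, 0.109 and 0.0634 CPM in Gli1Null against 0.651, 7.69 and 2.39 CPM in Gli1Het. The other lower genes were Sytl2 and Arhgap22, with 1.82 to 17.5 and 2.34 to 20.6 CPM in Gli1Het, and no Gli1Null value above 1.01 CPM. Dennd1c was higher, with 0.943, 0.942 and 1.27 CPM in Gli1Null against 0.455, 0.0655 and 0.0703 CPM in Gli1Het.

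The genotype difference on cuprizone was set against that on the control diet, where edgeR called 0 genes. In edgeR's test of the interaction of genotype and diet 0 of 17623 genes passed at 0.05, with 1591 at an unadjusted p under 0.05, so no gene was shown to differ by genotype more on cuprizone than on chow. The list medians in the cuprizone groups, −2.28 for reactive astrocyte genes, −1.58 for p53 targets, −2.01 for microglia markers and 1.24 for neuroblast markers, stood against 0.10, 0.03, 0.21 and −0.04 in the control groups. These lists were not tested for the difference between diets.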

How the data were processed

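RNA was measured in 12 libraries, 3 per genotype and diet. The paper and the submitters' notes name FastQC 0.11.5 for read quality, TopHat2 2.1.1 for alignment to mm10, HTSeq 0.11.1 for counting per gene and DESeq2 1.12 for testing. No source used here gives the Ensembl release or the strand setting. The authors deposited raw counts, and a second sheet with a signal per gene that the authors obtained by scaling each library by its size factor. Scaled back, 100% of those values were whole within 0.01 and, once rounded, 100% equalled the deposited counts. An edgeR fit on these recovered reads, added after the data were seen, called the same 7 genes. As the numbers were the same, this outcome was fixed in advance. In 33998 lines the first column named another gene than the count cells, so the gene ID inside the count cell was used. The table held 37991 genes. Reads matched to no feature (54.5% to 58.4% of unique reads) were left out. In these sheets no column of values for a single library was unused (0), but a column of means over all libraries was not used.

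The 17623 genes that filterByExpr kept (minimum count 10) were tested with edgeR 4.0.16 (R 4.3.3): TMM scaling, then 1 quasi-likelihood fit to the 12 libraries, with p-values adjusted by Benjamini-Hochberg and called at 0.05. To obtain an SE, the absolute log2 fold change was divided by the root of the F statistic. DESeq2 1.42.0 and limma 3.58.1 with library quality weights were alternatives. Log2 levels used a prior count of 2. Counting intervals are exact at 95% and cover counting error only. Gene coordinates are from GENCODE M21 and promoter windows from RefSeq. The tests were also run on simulated counts that had the same spread in every group. That run cannot show how they behave with a group as uneven as Gli1Het on cuprizone.

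Named genes were Gli1, every edgeR call, the 12 higher and 12 lower genes with the largest fold change among those with an edgeR adjusted p under 0.1, a DESeq2 adjusted p under 0.05, a mean of 5 CPM or more where higher and no overlap, the genes the study lists, and per list up to 4 members of smallest p and 2 of highest level. Lists and members were chosen with earlier results of these data known. No set test was run, and lists are described by counts and medians. Some items the naming rule selects are not reported here.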

Additional observations from a re-analysis of the deposited data

How the results depend on the processing

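The number of genes called between Gli1Null and Gli1Het cuprizone NSCs depended on the test. Against 7 in the reported fit, DESeq2 called 1701, DESeq2 with a fold change prior 1730, DESeq2 on the cuprizone libraries alone 717, limma with library quality weights 6674, edgeR without a filter on low counts 469, edgeR at an adjusted p under 0.1 1214, and edgeR on the cuprizone libraries alone 1, which was Gpnmb. The cause was not tested. With DESeq2 size factors 7 were called. The recovered reads also gave 7, but they equal the deposited counts and are no separate setting. Limma's weights gave Gli1Het replicates 1, 2 and 3 the values 0.277, 0.115 and 3.63. Leaving out 1 library at a time gave 0 to 5015 calls, the highest without Gli1Het cuprizone replicate 1, then 37 without replicate 2, 3 without replicate 3, and 0 or 1 without any other library (2782 to 4449 genes at an unadjusted p under 0.05). A term for label numbers under 10 left 0 calls (1897 at an unadjusted p under 0.05), and without the 4 libraries with such numbers 8 were called, among them Gpnmb and Strn4. Label number and genotype cannot be told apart where replicates 2 and 3 of the Gli1Het group differ from the rest.

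A replicate block called 1 gene in edgeR, which was none of the 7 (4062 at an unadjusted p under 0.05). Deviations of same-numbered libraries from their group means correlated at −0.05, −0.00368 and −0.0292. With so few libraries per group, these values cannot show whether same-numbered libraries were handled together.

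Some named genes that edgeR did not call turned direction. By limma with weights the log2 fold change was −0.01 for Sox9, −0.40 for Ttr, −0.18 for Slc7a5 and 2.91 for Trem2. With the label number term it was 0.34 for Slc1a3, −0.04 for Mbp and −0.08 for Slc7a5. Without the 4 libraries with low label numbers it was 0.14 for Gas1, 0.16 for Slc1a3, 0.16 for Fosl1 and 0.04 for Myc. Leaving out 1 library gave, among others, 0.02 and 0.10 for Slc1a3, −0.08 and −0.05 for Sox9, −0.06 for Slc7a5, and ranges of −0.09 to 0.18 for Slc7a5 and −3.81 to 6.52 for Ttr.

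With 3 pools of mice per group, 2 shallow Gli1Het libraries and a Gli1Het group that spread widely, a gene not called is not shown to be alike between the genotypes, and genes with few counts, such as Gjd2, rest on counting error as well.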
